A study of Mus musculus with 9 samples.

Results

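The antioxidant and glutathione genes described here are 42 listed mouse genes of the glutathione, thioredoxin and peroxiredoxin systems, the dismutases, haem and iron handling and the Nrf2 axis. Members were taken as the probes annotated to these symbols on a beadchip of 25697 probes. Of the 42 genes, 39 had at least 1 probe, and 35 had a probe detected on at least 3 of the 9 arrays and were tested among 7449 features. Prdx5, Prdx6 and Gsr had no probe under their symbols, and Gpx7, Gsta4, Mgst1 and Ftl1 had probes detected on at most 2 arrays.

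RNA came from mast cells grown from bone marrow of AhR null mice, AhR-d mice and normal control mice, all given as C57BL/6J strain, with 3 arrays per genotype. AhR is the aryl hydrocarbon receptor, a ligand-activated transcription factor that the null mice lack. The d allele is known for a receptor of lower ligand affinity. Every culture was kept for 4 weeks in medium with 30% supernatant of the WEHI-3 line, purified by bead depletion of other cells and rested for 4 h without cytokine, so all groups share this growth and rest. Replicate numbers are the batches of the labels, each holding 1 array of every genotype. What a batch shares, the age of the mice and whether replicates came from separate mice are not stated, so p-values measure the spread between these samples, which may be technical.

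Aerobic cells turn superoxide into hydrogen peroxide with superoxide dismutases, and remove the peroxide with catalase, glutathione peroxidases and peroxiredoxins. Glutathione, glutaredoxins and thioredoxins return the oxidised enzymes to their reduced state. The transcription factor Nrf2, held back by Keap1 in resting cells, switches on many of these genes through antioxidant response elements. In mast cells, oxidants formed after activation take part in degranulation and cytokine release.

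Values are signal intensities after background correction and quantile normalisation, on the log2 scale, in which 1 unit is a doubling. A gene was called when its adjusted p was under 0.05 in a limma fit over all features, with Benjamini-Hochberg adjustment. Ahr itself could not check the labels, because its only probe was detected on 0 of 9 arrays. Mean raw signal was 588 ± 58.5 on AhR null, 493 ± 176 on AhR-d and 404 ± 108 on control arrays (SD, n = 3 each), and between 7901 and 9733 probes were detected per array. All 13 mast cell markers with a probe were detected in every genotype, though Mcpt4 was undetected on 1 control array. Fcer1a, the IgE-binding chain, lay between 14.51 and 15.16, while 4 of the 13 were called higher and 0 lower in AhR null than in control. Over all features 6.56% were called higher and 5.8% lower. Without overlap, Ms4a2, Hdc, Tpsab1, Mcpt4 and Slc18a2 lay above control and Cpa3 and Hpgds below it. Hpgds read 8.16, 7.53 and 8.29 in AhR null and 9.10, 8.54 and 8.44 in control. Hdc, which makes histamine, read 13.58, 13.95 and 13.44 in AhR null, 11.66, 12.74 and 12.01 in AhR-d and 10.71, 11.24 and 10.55 in control.

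Some genes of the peroxide and superoxide route were called higher in AhR null than in control mast cells. Among them were 2 of 3 measured glutathione peroxidases, catalase, Sod1 and 1 of 5 genes counted as peroxiredoxins, sulfiredoxin included. Sod2 was higher in AhR null in every batch but was not called (0.47, adjusted p = 0.129). The thioredoxin reductases, the glutathione-synthesis genes and the Nrf2 pair were not called in this fit, which has no batch term. Of the 35 measured members, 7 rose, 0 fell and 28 were not called. With batch as a block, described below, 10 were called higher and 3 lower. The 7 that rose without the block were Gpx1, Gpx3, Sod1, Cat, Prdx3, Gsto1 and Hmox2, with log2 differences between 0.90 and 2.26. Over all features 6.56% were called higher, 5.8% lower and 12.4% in either direction, against 20% of the members, all higher. An unadjusted p under 0.05 was reached by 15 members, against 28.3% of all features. A difference above 0 was found for 24 of 35 members (68.6%) and 47.6% of all features. The median difference was 0.25 over the measured members and -0.03 over all features. Within batches, 14 members were higher in AhR null in all 3, 8 lower in all 3 and 13 mixed. In bulk RNA, fewer cells of a type and less RNA per cell cannot be told apart.

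**Figure D1:**
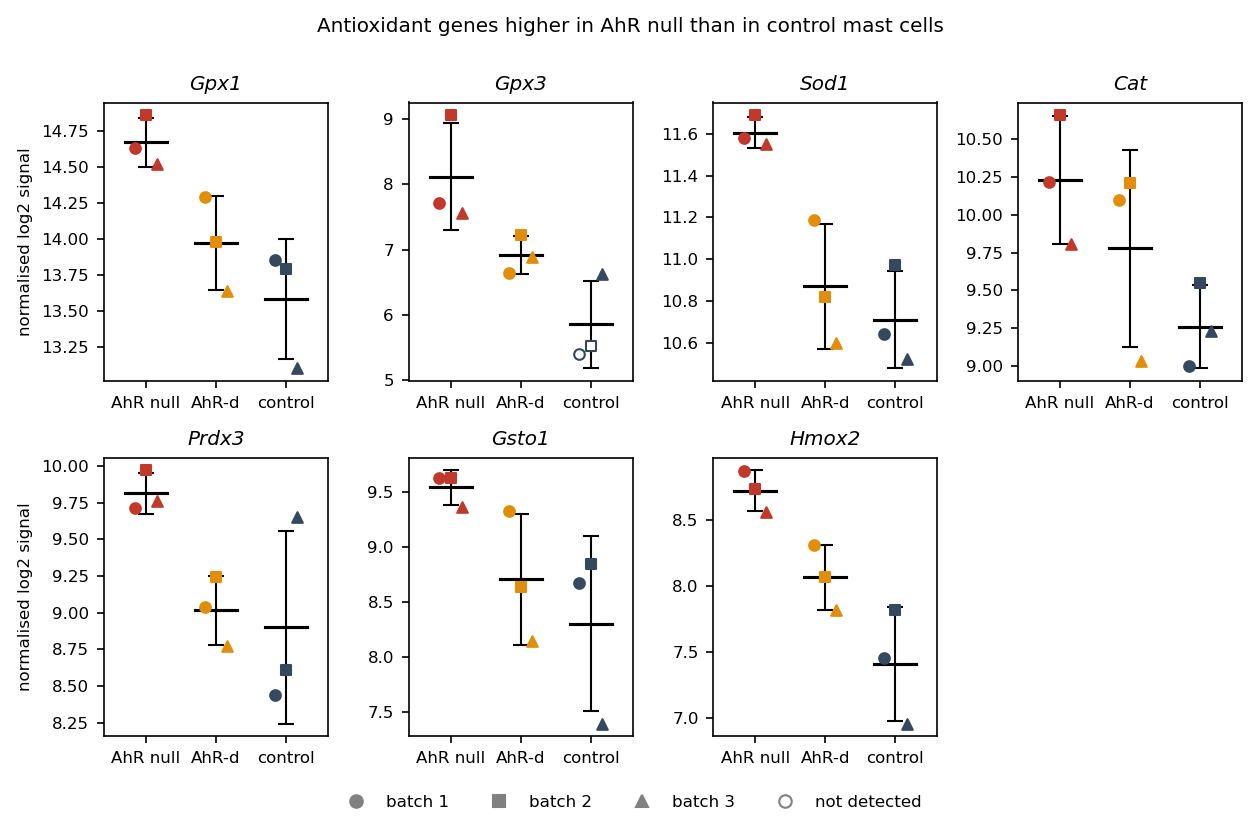
Normalised log2 signal (vertical axes) of the 7 called genes on each AhR null, AhR-d and control array; lines are means, bars are SD (n = 3), symbols mark the batch and open symbols an array without detection. Every AhR null array lies above every control array, with the narrowest gap for Prdx3 (9.71 against 9.65).

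Gpx1, the abundant cytosolic glutathione peroxidase, read 14.63, 14.86 and 14.52 in AhR null, 14.29, 13.98 and 13.64 in AhR-d and 13.85, 13.79 and 13.10 in control. The AhR null arrays stood above all others, while AhR-d and control overlapped. AhR null exceeded control by 1.09 (SE 0.21, 2.12-fold, adjusted p = 0.00406). These values approach the highest on the arrays, 15.34, where differences are compressed.

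Gpx3, the secreted glutathione peroxidase, had the widest difference of the members after background correction. Its values were 7.72, 9.06 and 7.57 in AhR null, 6.65, 7.22 and 6.89 in AhR-d and 5.41, 5.53 and 6.63 in control. No array of one genotype overlapped another genotype, and among controls only replicate 3 was detected. The fitted difference was 2.26 for AhR null against control (SE 0.41, adjusted p = 0.00293). It was 1.29 in the deposited values and 1.00 without background correction, below Gpx1 at 1.36 and 1.11, so its size depends on the background handling. Gpx4, which reduces lipid peroxides in membranes, differed by 0.26 (SE 0.20, adjusted p = 0.444), and its AhR null and control arrays overlapped.

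Sod1, the copper-zinc superoxide dismutase of the cytosol, stood at 11.58, 11.69 and 11.55 in AhR null, 11.19, 10.82 and 10.60 in AhR-d and 10.64, 10.97 and 10.52 in control. The AhR null replicates lay close together and above every other array. The difference from control was 0.90 (SE 0.18, 1.87-fold, adjusted p = 0.00509), and 1.44 with median scaling. Its mitochondrial counterpart Sod2 gave 10.87, 11.17 and 10.80 in AhR null, 11, 11 and 10.80 in AhR-d and 10.54, 10.82 and 10.07 in control, with overlap between AhR null and control and a difference of 0.47 (SE 0.19, adjusted p = 0.129).

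Cat encodes catalase, the peroxisomal enzyme that splits hydrogen peroxide. Its signal was 10.22, 10.66 and 9.81 in AhR null, 10.10, 10.21 and 9.03 in AhR-d and 9.0, 9.55 and 9.23 in control. AhR-d overlapped both other groups, and AhR null and control did not overlap (0.97, SE 0.30, 1.96-fold, adjusted p = 0.0487). The call was lost without AhR null replicate 1 or 2 or control replicate 1 or 3 (adjusted p from 0.101 to 0.188), with cyclic loess (0.0504), probe means (0.056), robust variances (0.0529) or no filter on dim probes (0.0514), and the difference was 1.58 with median scaling.

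The promoter windows of the peroxidases Gpx1 and Gpx3 and of the dismutase Sod1 are printed because these 3 enzymes of the peroxide route kept their calls with any 1 AhR null or control array left out. They are the 250 bases before each gene's start, on the plus strand of GRCm38.p6, from RefSeq. Capitals mark GCGTG, the core bound by AhR with its partner ARNT, and TGACNNNGC, the core of the antioxidant response element, on either strand. The windows are chr9:108338830-108339079 for Gpx1, chr11:54902604-54902853 for Gpx3 and chr16:90220512-90220761 for Sod1.
Gpx1: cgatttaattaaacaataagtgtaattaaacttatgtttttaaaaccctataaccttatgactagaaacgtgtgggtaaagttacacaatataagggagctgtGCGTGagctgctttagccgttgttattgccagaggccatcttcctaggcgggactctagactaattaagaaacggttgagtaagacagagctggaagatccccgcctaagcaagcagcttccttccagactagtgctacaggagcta
Gpx3: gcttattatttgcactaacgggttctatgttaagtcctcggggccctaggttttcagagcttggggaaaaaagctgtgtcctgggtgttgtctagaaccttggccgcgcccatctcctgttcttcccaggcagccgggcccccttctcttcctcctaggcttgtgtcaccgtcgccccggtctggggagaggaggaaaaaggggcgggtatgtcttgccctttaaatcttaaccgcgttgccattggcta
Sod1: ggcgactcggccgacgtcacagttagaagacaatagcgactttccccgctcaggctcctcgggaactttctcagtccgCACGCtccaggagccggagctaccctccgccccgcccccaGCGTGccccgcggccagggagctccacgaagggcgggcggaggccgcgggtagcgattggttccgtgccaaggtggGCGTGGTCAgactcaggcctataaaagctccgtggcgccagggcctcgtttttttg

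Gpx1 held 1 GCGTG, Gpx3 none of either motif, and Sod1 3 GCGTG, the last of which overlaps its single TGACNNNGC. Windows from 250 bases before to 50 after a start were found for 37 of the 42 members. GCGTG occurred for 24 of these 37 genes and TGACNNNGC for 9, against 35.2% and 14% of all 27025 genes with a window. Member windows were also richer in G and C, with a median of 59.4% against 52.7%. GCGTG was in the windows of 4 of the 7 called members and of 18 of the 26 measured members without a call. A match is a run of letters, not a measured binding site.

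Among the peroxiredoxins, thiol enzymes that reduce peroxides, 1 of 5 measured genes including sulfiredoxin was called. Prdx3, the mitochondrial peroxiredoxin, measured 9.71, 9.97 and 9.76 in AhR null, 9.04, 9.24 and 8.77 in AhR-d and 8.44, 8.61 and 9.65 in control. Control replicate 3 stood far above the other control arrays and close to AhR null. The difference was 0.91 (SE 0.27, 1.88-fold, adjusted p = 0.043), or 1.27, 1.36 and 0.12 in batches 1 to 3. Without any 1 AhR null array or control replicate 1 or 2 the adjusted p ran from 0.0896 to 0.169. It was 0.0513 with no filter and 0.0511 with the compared genotypes alone, and the difference was 1.54 with median scaling. The cytosolic peroxiredoxin Prdx2 also separated AhR null (10.99, 10.93 and 11.01) from control (10.63, 10.71 and 10.15), but by 0.48 at adjusted p = 0.0899. Prdx1 and the endoplasmic reticulum enzyme Prdx4 differed by 0.25 and 0.18, and Srxn1, the sulfiredoxin that repairs overoxidised peroxiredoxins, by 0.23 (SE 0.33, adjusted p = 0.694). Srxn1 arrays of all genotypes overlapped, between 7.87 and 9.20.

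The thioredoxin system showed no call in the fit without batch, and its 4 members had negative differences. Txnrd1, the cytosolic thioredoxin reductase, read 9.42, 9.84 and 8.78 in AhR null, 9.81, 10.45 and 10.42 in AhR-d and 10.46, 10.16 and 9.59 in control. The groups overlapped and the difference from control was -0.72 (SE 0.29, adjusted p = 0.114). Txnrd2, the mitochondrial reductase, separated AhR null (7.34, 7.16 and 7.55) from AhR-d (7.65, 7.85 and 7.74) and control (7.91, 7.97 and 7.75), at -0.53 against control (SE 0.22, adjusted p = 0.131). The thioredoxins themselves, cytosolic Txn1 and mitochondrial Txn2, differed by -0.37 and -0.18. The glutaredoxins Glrx, Glrx2, Glrx3 and Glrx5 ranged from -0.22 to 0.43, with adjusted p from 0.274 to 0.486.

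Glutathione synthesis gave no call either. The enzyme that makes its first intermediate consists of a catalytic subunit, Gclc, and a modifier subunit, Gclm, and their estimates had opposite signs. Gclc read 6.19, 5.87 and 5.68 in AhR null, 6.17, 6.69 and 6.45 in AhR-d and 7.17, 6.45 and 6.34 in control, with detection on 2 of 3 AhR null arrays and all others. AhR null lay below control without overlap, yet the difference of -0.73 (SE 0.32) had an adjusted p of 0.146. Gclm gave 10.42, 10.76 and 10.11 in AhR null, 10.27, 10.54 and 10.01 in AhR-d and 10.21, 9.91 and 9.59 in control. Its groups overlapped, at 0.53 against control (SE 0.22, adjusted p = 0.128). Glutathione synthetase, Gss, was dim, with detection on 2 AhR null, 2 AhR-d and 0 control arrays (0.56, SE 0.35, adjusted p = 0.317).

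Of 6 measured glutathione transferases, which join glutathione to electrophiles, 1 was called. Gsto1, an omega-class enzyme with thioltransferase activity, read 9.63, 9.63 and 9.36 in AhR null, 9.33, 8.64 and 8.15 in AhR-d and 8.67, 8.85 and 7.40 in control. AhR null lay above every other array, though its lowest value was only just above AhR-d replicate 1. The difference was 1.23 (SE 0.36, 2.35-fold, adjusted p = 0.0365), and 0.78 without control replicate 3. Its call was lost without any 1 AhR null array or control replicate 1 or 3 (adjusted p from 0.0556 to 0.112). Gstm1, Gstm5, Gstp1, Mgst2 and Mgst3 ranged from -0.21 to 0.38, and the AhR null and control arrays of each overlapped.

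The haem oxygenases, which open the haem ring and release iron, differed in their calls. Hmox2, the constitutive form, read 8.87, 8.74 and 8.56 in AhR null, 8.31, 8.07 and 7.82 in AhR-d and 7.46, 7.82 and 6.96 in control. The lowest AhR-d array equalled the highest control to 2 decimals, and AhR null stood above all. AhR null exceeded control by 1.31 (SE 0.25, 2.48-fold, adjusted p = 0.00404), and by 0.79 without background correction. The inducible form Hmox1 was near the detection limit, at 5.91, 6.23 and 5.58 in AhR null, 5.85, 5.87 and 5.58 in AhR-d and 6.30, 6.51 and 4.65 in control. Its difference from control was 0.09 in AhR null (SE 0.44, adjusted p = 0.922), and -0.25 with array brightness in the fit. The biliverdin reductases Blvra and Blvrb, which act next on the product of haem oxygenase, differed by 0.15 and -0.24. Fth1, the heavy chain of the iron store ferritin, differed by -0.38 (SE 0.15, adjusted p = 0.112) with no overlap, close to the top of the scale.

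Neither member of the Nrf2 axis was called in the fit without batch. Nfe2l2, which encodes Nrf2, read 7.14, 6.27 and 7.19 in AhR null, 6.14, 6.72 and 6.56 in AhR-d and 6.39, 6.37 and 6.44 in control (0.47 against control, SE 0.31, adjusted p = 0.352). AhR null replicate 2 lay below all controls and the other AhR null arrays above them. Keap1 gave 8.85, 9.02 and 9.05 in AhR null, 8.95, 9.64 and 10.01 in AhR-d and 9.21, 9.76 and 9.75 in control. AhR null was below control on every array, by -0.60 in the fit (SE 0.25, adjusted p = 0.135). With no overlap as the criterion, 9 of 35 members were higher and 4 lower in AhR null, against 16.9% and 17.4% of all features.

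**Figure D2:**
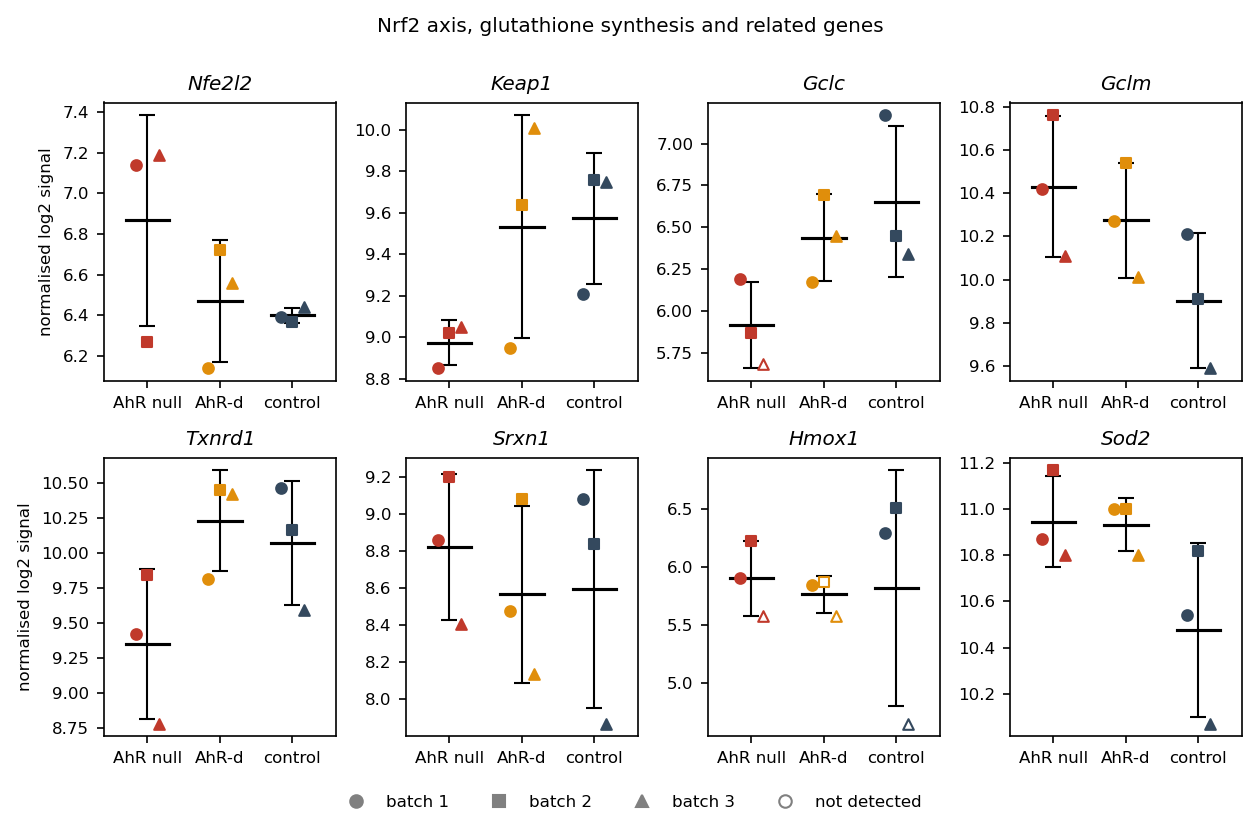
Normalised log2 signal (vertical axes) of Nfe2l2, Keap1, Gclc, Gclm, Txnrd1, Srxn1, Hmox1 and Sod2 on each AhR null, AhR-d and control array; lines are means, bars SD (n = 3), symbols mark the batch and open symbols an array without detection. Keap1 and Gclc lie lower on the AhR null than on the control arrays, and in the other 6 genes these groups overlap.

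With batch as a block, which the labels' shared batch numbers allow, 13 of 35 members were called, 10 higher and 3 lower, with the 7 genes above among them. In that fit 1580 of 7449 features passed, or 21.2%, against 37.1% of the members. The further members were Sod2 (adjusted p = 0.0336), Gclm (0.028) and Prdx2 (0.035), higher in AhR null, and Keap1 (0.0292), Txnrd1 (0.0408) and Fth1 (0.049), lower. For Keap1 and Fth1 this holds for the brightest probe. Without the block, other probes of Keap1 (0.57, 0.45 and 0.11) and Fth1 (0.27) had positive differences. Array brightness moved with genotype, and with it as a covariate the count was 1 member, Gpx3 (2.37, adjusted p = 0.0215), and 322 features. That was 2.86% of the members against 4.32% of all features, so the share of members was below that of all features. The estimates in that fit stayed positive for the other 6 genes, between 0.43 and 0.96, with adjusted p from 0.0736 to 0.516. AhR null replicate 3 and control replicate 2 had nearly equal mean raw signal, 523 and 527, and there 20 of 35 members and 49.8% of all features were higher in AhR null. This pair was chosen after the values were seen and spans batches 3 and 2.

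Scaling on the array median called the same 7 members, both in the deposited log2 values and after background correction. All features then split into 831 higher and 90 lower calls, or 837 and 86, against 489 and 432 after quantile normalisation, and their median difference was 0.29 or 0.53. Differences here are relative to the quantile-normalised median. Leaving out replicate 1 or 2 of AhR null, or replicate 1 of control, gave a count of 4, or 11.4% of the members. In these fits 6.89%, 6.75% and 7.29% of all features were called. Gpx1, Gpx3, Sod1 and Hmox2 kept their calls with any 1 of the 6 AhR null and control arrays left out. AhR-d arrays were not left out in this comparison.

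**Figure D3:**
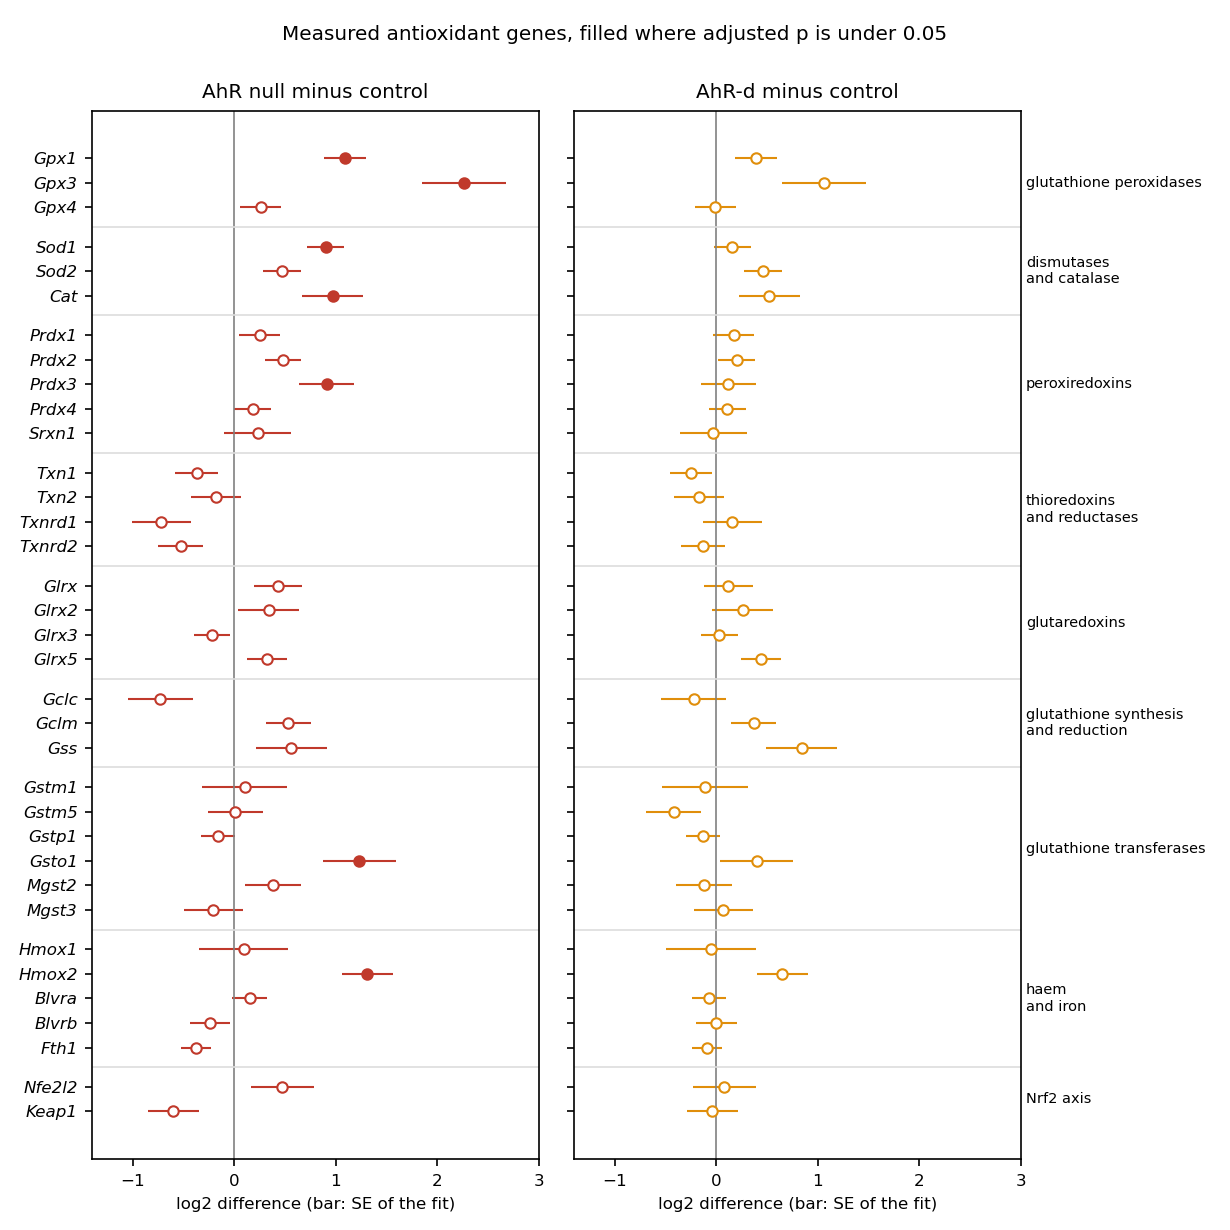
Log2 difference (horizontal axes) of AhR null minus control at left and AhR-d minus control at right for the 35 measured genes, grouped by role; bars are the SE of the fit and filled points have an adjusted p under 0.05. The 7 filled points lie at left between 0.90 and 2.26, and none is filled at right.

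Marrow cultures can hold other cells rich in these enzymes, so their markers were read on the same arrays, as sums of linear normalised signal. The 12 neutrophil markers with a probe summed to 1307 to 2090 in AhR null, 349 to 5482 in AhR-d and 335 to 368 in control. Camp, Ngp and Mmp8 among them were undetected on every array, and S100a8, a calcium-binding protein of neutrophils, was detected on all AhR null and 0 control arrays. The 12 monocyte and macrophage markers summed to 3567 to 8636, 2770 to 15236 and 1391 to 3794 in AhR null, AhR-d and control, with Ccr2, C1qa and C1qc undetected throughout. Red cell and megakaryocyte markers, 12 with a probe, summed to 4909 to 10430, 3758 to 6475 and 3733 to 5215 in the same order, with Alas2 and Ppbp undetected. Basophil markers, 4 with a probe, summed to 12053 to 14060 in AhR null, 9297 to 14150 in AhR-d and 10460 to 11371 in control, with Itga2 undetected. Eosinophil markers, also 4, summed to 175 to 324, 137 to 1766 and 121 to 132, with Siglecf undetected and Prg2, a granule protein, detected on 3 AhR null, 2 AhR-d and 0 control arrays. For each of these lists except the monocyte and the red cell and megakaryocyte markers, the AhR null sums lay above all control sums. Single red cell and megakaryocyte markers did separate the 2 groups. Hbb-bt read 10.31, 11.66 and 9.32 in AhR null and 6.98, 7.59 and 4.86 in control. Hbb-b2, Hbb-y and Klf1 were also higher in AhR null without overlap. Vwf was lower without overlap, and the other detected genes of that list overlapped. Of tested markers in AhR null against control, 3 of 7 neutrophil, 3 of 6 monocyte, 4 of 10 red cell and megakaryocyte and 1 of 3 basophil genes were higher, where 6.56% of all features were. S100a8, S100a9, Prtn3, Mpo, Chil3, Hbb-b2 and Klf1 were detected on 0 control arrays. They passed the detection filter only through the groups where they were high. These shares therefore cannot be read as an excess over all features. In the monocyte list 1 gene was lower, and in the red cell and megakaryocyte list 1.

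In AhR-d replicates 2 and 3 the neutrophil sums, 4923 and 5482, and the monocyte sums, 15236 and 13562, exceeded those of every AhR null array. Their red cell and megakaryocyte sums, 6475 and 3758, did not, against 4909 to 10430 in AhR null. On these arrays 6 of the 7 called genes lay below every AhR null array, for example Gpx1 at 13.98 and 13.64. Cat, at 10.21 on AhR-d replicate 2, was above AhR null replicate 3 at 9.81. The part of any of these cell types in the result was not tested.

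**Figure D4:**
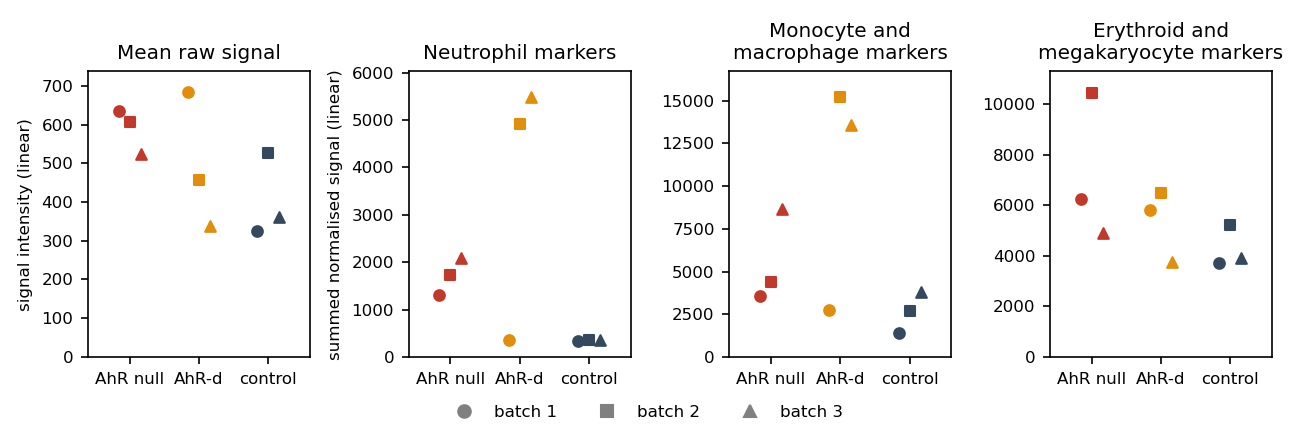
Mean raw signal and the summed linear normalised signal of neutrophil, monocyte and macrophage, and erythroid and megakaryocyte markers (vertical axes, from 0) on each AhR null, AhR-d and control array, with symbols for the batch. Neutrophil sums are highest on AhR-d replicates 2 and 3 (4923 and 5482), and mean raw signal is 588 ± 58.5 on AhR null against 404 ± 108 on control arrays (SD, n = 3).

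The AhR-d comparison asks whether these genes differ with the altered allele. In AhR-d cells 0 of 35 members were called in the limma fit, where 0.336% of all features were (0.282% higher and 0.0537% lower), and the count was 0 under every other setting run. An unadjusted p under 0.05 was reached by 5 members, Gpx3, Sod2, Glrx5, Gss and Hmox2, all with positive differences, or 14.3% against 7.53% of all features. Gss was detected on 2 AhR null, 2 AhR-d and 0 control arrays, and Gpx3 on 1 control array. Gss thus passed the detection filter only through the groups where it was high. For this reason the share cannot be read as an excess over all features. Gpx3 differed by 1.06 (SE 0.41, adjusted p = 0.489) and Hmox2 by 0.65 (SE 0.25, adjusted p = 0.472), with unadjusted 95% intervals from 0.18 to 1.95 and from 0.12 to 1.19. For Sod1 the interval ran from -0.22 to 0.55 and for Prdx3 from -0.47 to 0.70, around differences of 0.16 and 0.12. The median was 0.08 over the members and -0.01 over all features, and 20 of 35 members had a difference above 0, against 48% of all features. Of the members, Gpx3 was higher and Gstm5, a mu-class transferase, lower in AhR-d without overlap, against 5.06% and 5.44% of all features.

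AhR null was also set against AhR-d directly. Sod1 was the 1 member called (0.74, SE 0.18, 1.67-fold, adjusted p = 0.0446), or 2.86% of the members against 2.48% of all features called in either direction, 0.819% higher and 1.66% lower, a share near the background. An unadjusted p under 0.05 was reached by 8 members, where 16.7% of all features did, and 22 had a difference above 0, against 49.4%. Without overlap 7 members were higher in AhR null than in AhR-d and 2, Txnrd2 and Fth1, lower, against 11.1% and 12.4% of all features. It lost the call without any 1 AhR null array or AhR-d replicate 2 or 3 (adjusted p from 0.102 to 0.199). In the deposited values and after median scaling Sod1 lost it too (0.123 and 0.173) and Gpx3 gained one, at 0.93 and 1.63. The other 6 genes called against control had differences between 0.45 and 1.20 and adjusted p from 0.111 to 0.475. With batch as a block 4 members (11.4%) passed, where 6.74% of all features did: Gpx1 (0.70, adjusted p = 0.00742), Sod1 and Gsto1 (0.83, adjusted p = 0.0474) were higher and Txnrd1 (-0.88, adjusted p = 0.0363) lower in AhR null. The comparisons share arrays, so their values stand side by side and no overlap is drawn from them.

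In 16 members there was more than 1 probe, and some probes of 1 gene went apart. Of 7 members with several probes past the filter, Prdx2, Srxn1 and Txnrd2 had probes of 1 sign in AhR null against control, and Fth1, Gstp1, Keap1 and Mgst3 had probes of both signs. Gstp1 is the pi-class glutathione transferase. Its brightest probe differed by -0.16, while another, detected on all 9 arrays, read 9.82, 10.19 and 9.92 in AhR null, 9.59, 9.17 and 8.65 in AhR-d and 9.0, 9.51 and 8.78 in control. That probe was higher in AhR null by 0.88 (SE 0.25, adjusted p = 0.036 when each probe was tested on its own), so counting a gene by any of its probes gave 8 members. Gstp genes are near-identical copies, and which copies each probe reads was not analysed here.

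For Keap1 the brightest of 4 probes differed by -0.60 and the others by 0.11, 0.45 and 0.57, so the mean of its probes was 0.13. The negative difference of Keap1 therefore rests on 1 probe. For Fth1 the probes gave -0.38 and 0.27, at adjusted p = 0.12 and 0.285 in the test of single probes. The 7 called genes had 1 probe each, which leaves them without such a check.

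**Figure D5:**
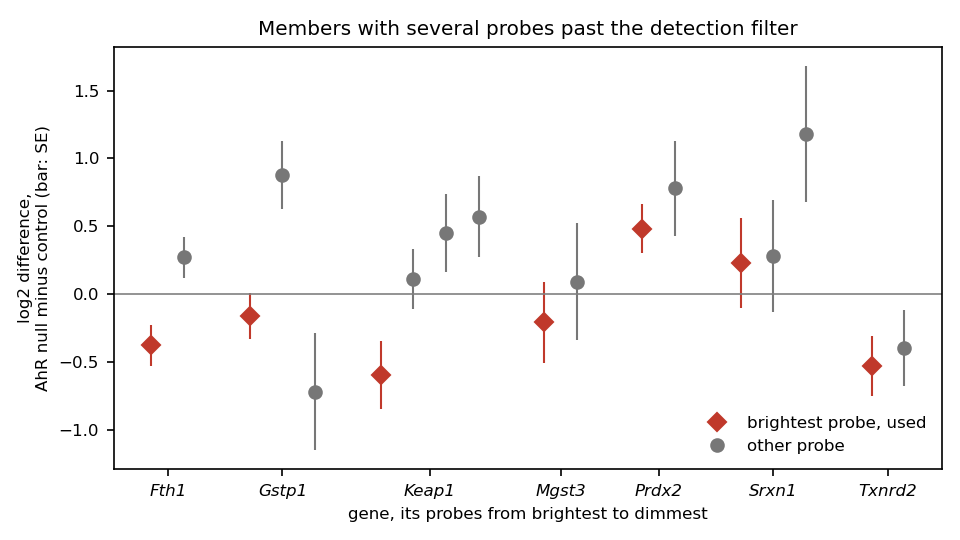
Log2 difference of AhR null minus control (vertical axis, bars are SE) for each probe of the 7 members with several probes past the detection filter, ordered from brightest to dimmest. The probes of Keap1 run from -0.60 to 0.57 and those of Gstp1 from -0.72 to 0.88, while both probes of Prdx2 and of Txnrd2 lie on 1 side of 0.

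A list of 100 other redox genes, in which 60 were measured, gave the setting of these results. In AhR null against control 9 rose (15%, against 6.56% of all features), 5 fell (8.33% against 5.8%) and 46 were not called. Some of the 9, Gsta3, Ephx1 and Slc11a2, were detected on 0 control arrays. They passed the detection filter only through the groups where they were high. The share that rose therefore cannot be read as an excess over all features. In AhR-d 0 were called, where 0.336% of all features were. There 5 had an unadjusted p under 0.05, or 8.33% against 7.53%, a share near that of all features. The genes that fell included AhR targets. Aldh3a1, an aldehyde dehydrogenase, read 5.85, 5.90 and 6.80 in AhR null, 8.76, 8.17 and 7.33 in AhR-d and 8.81, 9.32 and 8.77 in control (-2.79 for AhR null, adjusted p = 0.000185). Nqo1, a quinone reductase driven by AhR and Nrf2, read 5.97, 5.78 and 5.51 in AhR null, 6.71, 7.40 and 7.10 in AhR-d and 7.28, 7.84 and 7.76 in control (-1.87, adjusted p = 0.000766). AhR null lay below every other array in both genes. Their differences were -1.23 and -0.54 in the deposited values and -1.47 and -0.73 without background correction.

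Osgin1, an oxidative stress-induced growth inhibitor, fell by 1.87 (adjusted p = 0.00462) and by 1.10 in the deposited values, with 8.93, 9.78 and 8.25 in AhR null, 9.75, 11.14 and 9.98 in AhR-d and 10.92, 10.91 and 10.73 in control. Glo1, the glyoxalase that uses glutathione to clear methylglyoxal, fell by 0.72 (SE 0.16, adjusted p = 0.00797), and Msrb1, a methionine sulfoxide reductase, fell by 0.93 (SE 0.26, adjusted p = 0.0303). Glo1 and Msrb1 lost their calls in the deposited values (adjusted p = 0.746 and 0.546) and after median scaling.

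Gsta3, an alpha-class glutathione transferase, was among those that rose, at 7.60, 7.79 and 7.59 in AhR null, 5.60, 7.36 and 4.72 in AhR-d and 4.87, 5.14 and 4.56 in control. Control arrays did not detect it, so only a bound can be given: it was at least 2.98-fold higher in AhR null (adjusted p = 0.00272). For the bound each control array counts at its own value or its lowest detected signal, whichever is greater. By this bound Ephx1, the microsomal epoxide hydrolase, reached at least 1.35-fold higher levels (adjusted p = 0.014), and Slc11a2, an iron transporter, at least 1.55-fold (adjusted p = 0.0329). Gsta3 and Ephx1 were each detected on 3 AhR null, 1 AhR-d and 0 control arrays. Both passed the detection filter only through AhR null, so their place among the genes that rose may follow from that filter. Slc11a2 was detected on 3 AhR null, 3 AhR-d and 0 control arrays, and the same limit holds for it. Txnip, which binds thioredoxin, rose by 0.75 (SE 0.19, adjusted p = 0.0184) and Sesn1, a sestrin, by 1.01 (SE 0.27, adjusted p = 0.0266). Msrb2, a mitochondrial methionine sulfoxide reductase detected on 1 control array, rose by 1.19 (SE 0.33, adjusted p = 0.0308), and Idh1, a source of cytosolic NADPH, by 0.91 (SE 0.26, adjusted p = 0.0344). With median scaling Txnip was 1.18, Sesn1 1.65 and Idh1 1.55, and Msrb2 was 0.61 in the deposited values and 0.42 without background correction. Slc11a2 and Msrb2 lost their calls with no filter on dim probes (adjusted p = 0.0798 and 0.0632 in the limma fit). Ephx1, Txnip, Sesn1, Msrb2, Slc11a2, Idh1 and Msrb1 lost their calls without at least 1 of the 6 arrays (adjusted p up to 0.149), while Aldh3a1, Nqo1, Gsta3, Osgin1 and Glo1 kept theirs without any 1 of them.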

How the data were processed

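Illumina mouse Ref-8 beadchips were read as 1-colour arrays. The deposited full table holds linear signal intensity per probe, unscaled between arrays, and, per the file headers, a detection p-value after each intensity column. The submitters' processing notes name GenomeStudio. The deposited series table holds log2 values, which equal the log2 of the same signal plus 1 constant per array, set so that each median is 8. A deposited table of probes chosen by the study was not used.

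Intensities were processed with neqc (limma 3.58.1, R 4.3.3): normexp background from the detection p-values, an offset of 16, quantile normalisation and log2. Probes with a detection p-value under 0.01 on at least 3 arrays were kept, 9777 in all. The platform annotation named 23978 probes and left 1719 unnamed. A gene was represented by its brightest probe. The 7449 features were 6864 named genes and 585 unnamed probes. 1 limma fit with a mean per genotype, an intensity trend and 6 residual degrees of freedom gave the 3 comparisons, and was tested on simulated data. Array number limits precision. Replicate arrays correlated at 0.946 to 0.978 across features.

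Named genes were the members called in any comparison, the members Nfe2l2, Keap1, Hmox1, Gclc, Gclm, Gsr, Txnrd1, Srxn1, Cat and Sod2, and at most 12 called genes of the other redox list by smallest p. The other members are summarised or named with their values. The members, lists and rule were chosen with earlier results of these data known. Batch pairing was checked on deviations from genotype means: the 9 pairs of arrays sharing a batch correlated at 0.11 to 0.36 and the 18 other pairs between genotypes at -0.36 to 0.068, so the batch numbers of the labels pair the arrays. Other settings were the deposited values, median scaling, cyclic loess, no background correction, an offset of 50, other filters, probe means, a batch block, a brightness covariate, robust variances, fits of the compared genotypes, single arrays left out of the fit, and, chosen after seeing the data, single probes.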

Additional observations from a re-analysis of the deposited data

How the results depend on the processing

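In AhR null against control, 13 members and 1580 features were called with the replicate block, 1 and 322 with array brightness in the fit, and 4 to 6 and 503 to 881 with 1 array left out, here and below always an array of a compared genotype. The other settings kept both counts within 1.5 times the reported ones. In AhR-d against control the 25 features became 9 in the deposited values, 41 with median scaling, 7 without background correction, 6 with detection on all 9 arrays, 11 with probe means, 118 with the replicate block, 10 with the 2 compared genotypes only and 5 to 46 with 1 array left out. In AhR null against AhR-d the 1 member became 4 with the replicate block, 0 with no filter, brightness, the 2 compared genotypes only or single probes, and 0 to 1 with 1 array left out. The 185 features became 123 with median scaling, 502 with the block, 110 with brightness and 82 to 217 with 1 array left out. The causes were not tested. The block changed no other member's call than those given.

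Estimates without a call changed sign as follows. In AhR null against control, Keap1 was 0.01 with median scaling and 0.13 with probe means, and Hmox1 -0.25 with brightness; with 1 array left out Hmox1 ran from -0.50 to 0.43 and Srxn1 from -0.14 to 0.47. In AhR-d against control, the deposited values, median scaling and probe means gave Keap1 0.05, 0.15 and 0.06 (0.09 with brightness) and Srxn1 0.07, 0.17 and 0.26, the first 2 gave Hmox1 0.02 and 0.04, and probe means gave Fth1 0.08. With 1 array left out, Prdx3 ran from -0.11 to 0.49, Gsto1 from -0.05 to 0.68, Nfe2l2 from -0.05 to 0.24, Keap1 from -0.28 to 0.25, Hmox1 from -0.64 to 0.29, Gclc from -0.37 to 0.04, Txnrd1 from -0.08 to 0.37, Srxn1 from -0.40 to 0.21 and Sesn1 from -0.14 to 0.29. In AhR null against AhR-d, Keap1 was 0.07 with probe means, and Hmox1 -0.04 and Sod2 -0.10 with brightness; with 1 array left out Hmox1 ran from -0.02 to 0.30, Gclm from -0.01 to 0.32 and Sod2 from -0.10 to 0.09. Gclc, Gss and Hmox1 lay near background, where differences are least certain.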
